A study of Mus musculus with 10 samples.

Results

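The genes described here are the antigen presentation genes of the mouse major histocompatibility complex (MHC), which in the mouse is named H2, together with their closest partners. They were chosen by name from the deposited expression table: every gene whose symbol begins with H2-, apart from H2-Ke2 and H2-Ke6, which gave 29 genes, and 11 partners (Cd74, Ciita, Nlrc5, B2m, Tap1, Tap2, Tapbp, Tapbpl, Erap1, Calr and Pdia3). These are 40 of the 13809 genes in the table. By role they comprise 3 classical class I heavy chain genes (H2-K1, H2-D1 and H2-L), 17 other class I heavy chain genes of the H2-K, H2-Q, H2-T and H2-M series, 8 genes of the class I light chain and peptide loading, 4 classical class II genes, 5 accessory class II genes, the invariant chain Cd74, and the transactivators Nlrc5 and Ciita. All 40 passed the filter on low values, which asked for at least 10 normalized reads in at least 2 libraries. Of the 40, 36 were found by symbol in the GENCODE M21 annotation of GRCm38, and 28 of them lie on chromosome 17. There H2-K1 spans chr17:33996017-34000347, Tap1 chr17:34187553-34197225, H2-Ab1 chr17:34257689-34269419 and H2-Aa chr17:34282744-34287823, while the transactivators Nlrc5 (chr8:94434356-94527272) and Ciita (chr16:10480059-10528418) and the light chain B2m (chr2:122147686-122153083) lie outside the complex. H2-L, H2-Q8, H2-Q9 and H2-T9 were not found under these names and are given no position.

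The libraries come from bone marrow of C57BL/6 mice aged 12 weeks, with no genetic change named for any group. Resident macrophages were the marrow cells held back by a magnetic column although no magnetic label had been added, and the labels describe them as positive for CD163, a hemoglobin scavenger receptor. Bone marrow derived macrophages (BMDM), labelled negative for CD163, were cultured from the cells that passed through the column, in medium with 20% L929 cell supernatant, a source of macrophage growth factor, for 6 days by the protocol or 7 days by the titles. Each kind of cell was left untreated or was exposed to lipopolysaccharide (LPS), a bacterial product sensed by Toll-like receptor 4, at 1 µg/ml for 4 h. There were 3 untreated and 3 LPS-treated resident libraries and 2 untreated and 2 LPS-treated BMDM libraries, and Cd163 itself read 4131 to 10740 normalized reads in the resident libraries and 14.4 to 53.9 in BMDM. Whether the libraries of a group are separate animals or cultures is not stated in the labels. The p-values therefore reflect only how far these libraries differ, which may be technical.

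Class I molecules are a polymorphic heavy chain held with the light chain B2m, and they show peptides from the cell's interior to CD8 T cells. The peptides are pumped into the endoplasmic reticulum by TAP (Tap1 and Tap2), trimmed there by Erap1 and loaded with the help of tapasin (Tapbp), calreticulin (Calr) and Pdia3. Class II molecules pair an alpha and a beta chain, are escorted by the invariant chain Cd74, exchange its remnant for a peptide with the help of H2-DM under the restraint of H2-O, and are read by CD4 T cells. Nlrc5 is the transactivator of class I genes and Ciita that of class II genes. Both are recruited to a conserved X and Y box module in the promoters of their targets, and in macrophages interferons are known to raise class I genes widely.

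Promoters of 26 of the 40 genes were found in the RefSeq promoter table, and 6 of them are shown because they carry the letters that class I and class II genes share or do not share. Each is the 200 bases before the annotated start on GRCm38.p6, and capitals mark matches, on either strand, to any of 4 patterns: an NF-kB site (GGGGATTCCCC), an interferon-stimulated response element or ISRE (AGTTTCNCTT), a Y box (TGATTGG, or CCAATCA when read from the other strand) and an X box (GNAACNNNTGA). H2-K1 is at chr17:34000348-34000547 on the minus strand, H2-Q4 at chr17:35379417-35379616 on the plus strand, H2-T22 at chr17:36042743-36042942 on the minus strand, H2-Aa at chr17:34287824-34288023 on the minus strand, H2-Eb1 at chr17:34305667-34305866 on the plus strand and H2-Ob at chr17:34238705-34238904 on the plus strand.
H2-K1: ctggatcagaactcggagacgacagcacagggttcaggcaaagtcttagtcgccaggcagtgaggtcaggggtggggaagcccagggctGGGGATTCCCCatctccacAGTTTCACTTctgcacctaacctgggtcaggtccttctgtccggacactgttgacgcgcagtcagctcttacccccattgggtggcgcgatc
H2-Q4: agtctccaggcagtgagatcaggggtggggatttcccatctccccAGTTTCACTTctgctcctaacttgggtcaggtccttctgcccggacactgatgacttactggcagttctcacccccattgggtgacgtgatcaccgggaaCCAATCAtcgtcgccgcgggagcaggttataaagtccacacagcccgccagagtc
H2-T22: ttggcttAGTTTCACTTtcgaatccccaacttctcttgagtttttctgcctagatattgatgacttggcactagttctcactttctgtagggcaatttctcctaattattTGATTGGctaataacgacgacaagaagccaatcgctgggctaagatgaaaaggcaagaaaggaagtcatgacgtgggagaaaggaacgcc
H2-Aa: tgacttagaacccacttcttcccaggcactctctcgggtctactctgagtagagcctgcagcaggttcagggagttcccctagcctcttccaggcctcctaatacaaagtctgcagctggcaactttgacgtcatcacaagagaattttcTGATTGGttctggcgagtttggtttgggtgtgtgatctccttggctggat
H2-Eb1: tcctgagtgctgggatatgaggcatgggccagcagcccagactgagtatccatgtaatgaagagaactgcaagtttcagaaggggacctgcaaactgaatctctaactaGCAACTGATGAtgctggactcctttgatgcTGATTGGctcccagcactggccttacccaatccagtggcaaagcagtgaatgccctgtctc
H2-Ob: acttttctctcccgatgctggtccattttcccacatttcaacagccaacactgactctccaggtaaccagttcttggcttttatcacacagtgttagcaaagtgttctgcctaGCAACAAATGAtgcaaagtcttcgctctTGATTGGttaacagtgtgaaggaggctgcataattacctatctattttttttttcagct

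The H2-K1 promoter held the NF-kB letters from 111 bases and the ISRE from 92 bases before the start. In H2-T22 the ISRE began 193 and the Y box 90 bases before the start, and in H2-Q4 they began at 155 and 55. H2-Eb1 and H2-Ob carried the X box at 91 and 87 bases and the Y box at 61 and 59 bases before their starts, and H2-Aa carried a Y box at 50. The ISRE was present in 8 of the 12 class I heavy chain promoters in the table and in 0 of the 8 class II promoters, against 0.363% of 27025 mouse promoters. The NF-kB letters were present in 3 of 12 and 0 of 8 (H2-K1, H2-D1 and H2-Q6), against 0.0222% of all promoters. The Y box was in 7 of 12 and 7 of 8, against 6.98%, and the X box in 0 of 12 and 3 of 8, against 2.16%. The patterns overlap no other pattern in the promoters shown. The NF-kB and ISRE letters are those of H2-K1 and the X and Y box letters those of H2-Eb1, with N for any base. These promoters therefore match by construction, and their matches are within the counts. A promoter without a match, such as H2-Aa for the X box, may still hold such a site in other letters or spacing. The patterns are descriptions of letters only: 16 patterns were tried, and these 4 patterns and 6 promoters were kept after their matches were seen.

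Some libraries stood apart before any comparison. Replicate 1 of the untreated resident group and replicate 1 of the LPS resident group were the only libraries with reads of the Y-linked gene Ddx3y, at 1856 and 1975 normalized reads against the floor of 1 elsewhere. Both also read higher for H2-Aa, H2-Ab1, H2-Eb1, Cd74, H2-DMa and H2-DMb1, as described with those genes. The deposited values summed to 38.6 M and 38.8 M in the LPS BMDM libraries but to 24.7 M and 26.0 M in the untreated BMDM libraries, and to 26.6 M to 32.4 M in the resident ones. Under equal library totals the median log2 change of all genes with LPS was −0.64 in BMDM and −0.12 in resident cells, against −0.04 and 0.00 as deposited, so values whose call or direction ended or turned with equal totals are given under both scalings. Fewer cells of a type and less RNA per cell cannot be told apart in these bulk libraries.

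LPS raised most genes of the class I pathway in BMDM. Among the 40 genes, 29 rose and 1 fell in BMDM, where 28.3% of all tested genes rose and 29.5% fell (57.8% in all). Equal library totals gave 24 rises and 4 falls among the 40 genes, and over all genes moved the split from 3896 rises of 7953 called to 2158 of 10002. The libraries of the 2 groups did not overlap for 35 genes on the higher side and 2 on the lower side, against 39.7% and 44.7% of all genes. The rises comprised 19 of 20 class I heavy chain genes, 6 of 8 light chain and loading genes, both transactivators and 2 of 10 class II genes with Cd74. The median log2 change of the 20 heavy chain genes was 2.58 (2.30 with the genes at the floor set to their bound), against −0.04 over all genes. Apart from H2-M9, which was at the floor in every BMDM library and so shows no change by construction, all lay above the median of all genes with either scaling.

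The class I transactivator Nlrc5 showed the largest rise of the 40 genes in BMDM. It read 461 and 433 normalized reads in untreated BMDM and 15029 and 14714 in LPS BMDM. It read 6563, 6877 and 5848 in untreated resident cells and 9525, 10373 and 10954 in LPS resident cells. Resident cells thus held Nlrc5 at an intermediate level before LPS, and no group overlapped another. The rise in BMDM was 33.3-fold, a log2 change of 5.05 ± 0.10 (SE, limma adjusted p = 1.29e-10), and that in resident cells was 0.68 ± 0.08 (adjusted p = 0.00093).

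The peptide transporter followed the same order of groups. Tap1, a subunit of TAP, read 1634 and 1805 in untreated BMDM, 14902, 15894 and 13507 in untreated resident cells, 20140, 20497 and 20670 in LPS resident cells, and 29772 and 28864 in LPS BMDM. The groups again did not overlap, and the log2 rise was 4.09 ± 0.10 in BMDM (limma adjusted p = 4.19e-10) and 0.47 ± 0.08 (adjusted p = 0.00534) in resident cells. Tap2, the partner subunit, read 2034 and 2140 in untreated and 15638 and 14445 in LPS BMDM, with 8448, 8919 and 6941 in untreated and 9821, 8858 and 8658 in LPS resident cells. Its log2 change was 2.85 ± 0.12 in BMDM and 0.18 ± 0.10 in resident cells, where it was not called (limma adjusted p = 0.295) and the groups overlapped. Tapasin (Tapbp), which bridges TAP and the empty heavy chain, read 6726 and 6600 in untreated and 40046 and 38689 in LPS BMDM, and 19930, 20166 and 16587 in untreated and 26927, 23839 and 25057 in LPS resident cells. It rose by 2.56 ± 0.12 in BMDM and 0.42 ± 0.10 in resident cells (adjusted p = 0.0197). Its relative Tapbpl, a peptide editor, read 471 and 442 in untreated and 3217 and 3061 in LPS BMDM, and 1793, 1498 and 1380 in untreated and 1878, 1456 and 1478 in LPS resident cells, with the resident groups overlapping. It rose by 2.78 ± 0.15 in BMDM and was not called in resident cells (adjusted p = 0.879).

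Trimming and chaperone genes moved less. The aminopeptidase Erap1 read 1738 and 1682 in untreated and 3449 and 3557 in LPS BMDM, a log2 change of 1.03 ± 0.09 (limma adjusted p = 4.02e-06). It read 2123, 1924 and 1760 in untreated and 2172, 2207 and 2140 in LPS resident cells and was not called there (adjusted p = 0.164). Calr and Pdia3, which also serve other glycoproteins of the endoplasmic reticulum, were not called in any of the 5 comparisons as deposited. With equal library totals both were called lower with LPS in BMDM (Calr −0.72, limma adjusted p = 0.000448, and Pdia3 −0.62, adjusted p = 0.00192), and Calr was called higher in resident cells after LPS (0.50, adjusted p = 0.00252) and for the difference of responses (0.53, adjusted p = 0.0185). Calr read 19994 and 19252 in untreated and 18267 and 18198 in LPS BMDM, and 25474, 21700 and 18188 in untreated and 24040, 20448 and 17834 in LPS resident cells. Pdia3 read 16196 and 16602 in untreated and 16339 and 16259 in LPS BMDM, and 20156, 16454 and 13811 in untreated and 18321, 15839 and 13136 in LPS resident cells. For both genes all BMDM values lay within the resident range, and for Calr the LPS BMDM libraries lay below the untreated ones.

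The classical heavy chains were abundant in every group and changed by smaller folds. H2-K1 read 36182 and 36589 in untreated BMDM and 86874 and 85225 in LPS BMDM. In resident cells it read 86365, 78332 and 65427 untreated and 90211, 80222 and 79184 with LPS. LPS BMDM therefore fell within the range of the resident libraries, while untreated BMDM lay below all of them. The log2 change was 1.24 ± 0.17 in BMDM (limma adjusted p = 0.000129) and 0.12 ± 0.14 in resident cells (adjusted p = 0.641). The BMDM rise of H2-K1 depended on the scaling: quantile normalization brought it to 0, where the call was lost.

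H2-D1 read 97987 and 101578 in untreated and 156782 and 156616 in LPS BMDM, against 145762, 119091 and 104247 in untreated and 141014, 116034 and 115355 in LPS resident cells. The resident groups overlapped and the change was 0.02 ± 0.18 (limma adjusted p = 0.965), whereas in BMDM it was 0.65 ± 0.22 (adjusted p = 0.0282). The BMDM call was lost without any single one of the 4 BMDM libraries (0.63 to 0.68, adjusted p from 0.0911 to 0.116), equal library totals brought it to 0.04, and quantile normalization turned its sign (−0.37). The light chain B2m read 57068 and 53938 in untreated and 126368 and 130079 in LPS BMDM, a change of 1.21 ± 0.21 (adjusted p = 0.000716). In resident cells it read 97643, 78763 and 65940 untreated and 102129, 88651 and 79265 with LPS, which overlapped (0.17 ± 0.17, adjusted p = 0.612).

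The balance between H2-D1 and H2-K1 within a library is not changed by a factor that scales the whole library, as equal totals do, though quantile normalization can change it. H2-D1 over H2-K1 was 2.71 and 2.78 in untreated BMDM and 1.80 and 1.84 in LPS BMDM. It was 1.69, 1.52 and 1.59 in untreated and 1.56, 1.45 and 1.46 in LPS resident cells. H2-K1 thus gained on H2-D1 with LPS in both BMDM libraries, and the BMDM ratios with LPS remained above all 6 resident ratios. Per kilobase of the GENCODE exon union, the mean level of B2m was 93933 in untreated resident cells, that of H2-D1 47706 and that of H2-K1 26109, and in LPS BMDM these levels were 149100, 60760 and 29288. H2-K1, H2-D1 and H2-L are near-identical over long stretches, so reads could have been divided between them in ways the sources used here do not describe. H2-L, which has no gene of that name in the C57BL/6 annotation used here, read 230 and 242 in untreated and 359 and 436 in LPS BMDM, and 321, 243 and 231 in untreated and 169, 176 and 305 in LPS resident cells. Its rise in BMDM (0.74 ± 0.27, limma adjusted p = 0.0387) was lost without any single one of the 4 BMDM libraries (0.60 to 0.88) and with equal totals (0.13).

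**Figure D1:**
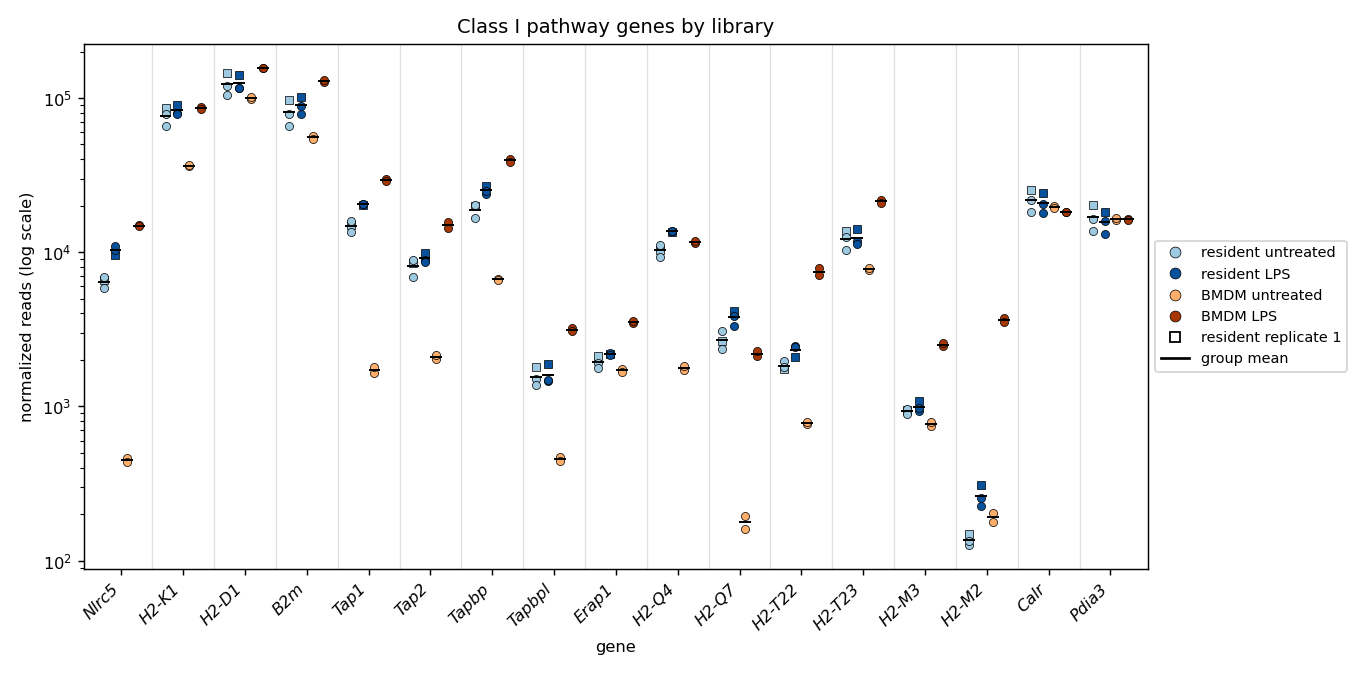
Normalized reads per library (log scale) of 17 class I pathway genes. Colours mark the 4 groups, squares mark resident replicate 1, other points are the remaining libraries, and bars are group means. For Nlrc5 and Tap1 untreated BMDM lies lowest, the resident groups lie between and LPS BMDM lies highest, while Calr and Pdia3 stay within 17834 to 25474 and 13136 to 20156 over all libraries.

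The other class I genes, which include molecules read by natural killer and unconventional T cells, gave the widest range of responses. In BMDM 16 of the 17 rose by the limma test, all but H2-M9, where 28.3% of all tested genes rose. By voom, which scales reads by library totals, 15 of the 17 rose. H2-M2, an H2-M series gene, read 204 and 178 in untreated and 3720 and 3522 in LPS BMDM (log2 4.24 ± 0.16), but 149, 126 and 133 in untreated and 310, 225 and 254 in LPS resident cells (0.94 ± 0.13, limma adjusted p = 0.00215). Its level in LPS BMDM thus stood above every other group by a wide gap. H2-M3, which presents N-formylated bacterial peptides, read 746 and 797 in untreated and 2462 and 2557 in LPS BMDM, a rise of 1.70 ± 0.09. Its 6 resident values lay between 893 and 1076 and overlapped between treatments (0.08 ± 0.08, limma adjusted p = 0.552). H2-T23, the Qa-1 molecule that engages NKG2 receptors, rose by 1.45 ± 0.15 in BMDM, from 7695 and 7931 to 21870 and 20902. In resident cells it read 13703, 12558 and 10350 untreated and 14231, 11747 and 11344 with LPS, which overlapped (0.03 ± 0.12, adjusted p = 0.914).

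H2-T22, a ligand of gamma delta T cells, read 769 and 786 in untreated and 7864 and 7068 in LPS BMDM, a rise of 3.26 ± 0.10. Its resident values were 1741, 1956 and 1795 untreated and 2084, 2447 and 2438 with LPS, and the rise of 0.34 ± 0.08 (limma adjusted p = 0.025) was lost without untreated replicate 3, LPS replicate 2 or LPS replicate 3 (0.30 to 0.42, adjusted p from 0.0683 to 0.0928) and with equal totals (0.22). Of the other H2-T genes, H2-T10 read 149 and 156 in untreated and 1398 and 1345 in LPS BMDM, and 620, 749 and 739 in untreated and 1290, 1207 and 1606 in LPS resident cells. H2-T24 read 222 and 231 in untreated and 2341 and 2337 in LPS BMDM, and 1420, 1702 and 2038 in untreated and 1802, 1896 and 1995 in LPS resident cells, and H2-T9 read 976 and 1076 in untreated and 8719 and 8662 in LPS BMDM, and 3256, 3646 and 2676 in untreated and 4009, 3869 and 3567 in LPS resident cells. In each the untreated BMDM libraries were the lowest. H2-T10 rose in both origins (3.16 in BMDM and 0.95 ± 0.12 in resident cells, adjusted p = 0.00103), while H2-T24 (3.36) and H2-T9 (3.08) rose in BMDM and were not called in resident cells. H2-T10 and H2-T22 are close copies, as are H2-T9 and its neighbours, so the split of reads among them is uncertain.

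The H2-Q genes started near the bottom in untreated BMDM. H2-Q4 read 1712 and 1824 in untreated and 11545 and 11808 in LPS BMDM, against 10285, 11198 and 9285 in untreated and 13538, 13732 and 13755 in LPS resident cells. The changes were 2.72 ± 0.10 in BMDM and 0.42 ± 0.08 in resident cells (limma adjusted p = 0.00788), and the resident groups did not overlap. H2-Q7 read 194 and 160 in untreated and 2109 and 2273 in LPS BMDM (3.63 ± 0.15), with 2649, 3059 and 2357 in untreated and 4141, 3873 and 3325 in LPS resident cells. Its resident change of 0.49 ± 0.12 (adjusted p = 0.0235) was lost without untreated replicate 3, LPS replicate 1 or LPS replicate 2 (0.40 to 0.59, adjusted p from 0.0622 to 0.0790) and with equal totals (0.37). H2-Q5 (0.49) and H2-Q6 (0.80) also rose in resident cells, and H2-Q8 and H2-Q9 were not called there (adjusted p = 0.0671 and 0.0752). H2-Q5 read 118 and 143 in untreated and 913 and 962 in LPS BMDM, and 1028, 1048 and 965 in untreated and 1468, 1368 and 1437 in LPS resident cells, and H2-Q6 read 66.5 and 79.5 in untreated and 327 and 222 in LPS BMDM, and 526, 598 and 522 in untreated and 889, 1038 and 951 in LPS resident cells. H2-Q8 read 103 and 128 in untreated and 1475 and 1850 in LPS BMDM, and 2995, 3079 and 2634 in untreated and 3506, 4061 and 3636 in LPS resident cells, and H2-Q9 read 84.8 and 145 in untreated and 1032 and 954 in LPS BMDM, and 1133, 1418 and 998 in untreated and 1652, 1906 and 1662 in LPS resident cells. In all 4 genes both BMDM groups lay below the LPS resident group. In BMDM the changes of these 4 genes were 2.84, 1.88, 3.83 and 3.15. H2-Q6, H2-Q7, H2-Q8 and H2-Q9 are near-identical, so their values are best read together: the 8 H2-Q genes summed to 2280 and 2483 in untreated BMDM, 17416 and 18089 in LPS BMDM, 18961, 20718 and 17166 in untreated and 25848, 26390 and 25290 in LPS resident cells.

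At the low end, H2-Q10, which encodes a secreted class I molecule, was at the floor in both untreated BMDM libraries and read 10.3 and 9.48 with LPS, at least 3.61-fold higher against 3 reads per library. It read 333, 309 and 392 in untreated resident cells, at least 126-fold higher than untreated BMDM on the same floor, and 646, 396 and 520 with LPS. H2-M9 was at the floor in all 4 BMDM libraries and read 6.24 to 25.6 in the resident ones, at least 6.09-fold higher untreated and 4.00-fold higher with LPS. H2-Q2 did not exceed 15.0 in any library. H2-K2, a transcribed pseudogene in GENCODE, read 356 and 337 in untreated and 772 and 698 in LPS BMDM, and 1779, 1779 and 1777 in untreated and 2329, 1889 and 2253 in LPS resident cells. It rose by 1.08 in BMDM and was not called in resident cells (limma adjusted p = 0.0713).

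In resident cells the same treatment raised 11 of the 40 genes and lowered 0 by the limma test (0 also at an unadjusted p under 0.05 and by voom), where 7.36% of all tested genes rose and 5.57% fell (12.9% in all). Equal library totals gave 9 rises and 1 fall among the 40 genes, and over all genes moved the split from 1013 rises of 1779 called to 646 of 2386. The 11 were Nlrc5, Ciita, Tap1, Tapbp, H2-M2, H2-Q4, H2-Q5, H2-Q6, H2-Q7, H2-T10 and H2-T22. The libraries did not overlap on the higher side for 16 genes and on the lower side for 0, against 13.8% and 13.3% of all genes. Of the 3 classical heavy chain genes and the 10 class II genes with Cd74, 0 were called, also at an unadjusted p under 0.05 and by voom, and the median log2 change of the 40 genes was 0.17 against 0.00 over all genes. With the 6 resident libraries alone, 6 genes were called, and the calls of Ciita, H2-Q4, H2-Q7, H2-T22 and Tapbp were lost.

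The 2 responses were compared directly. The resident minus BMDM difference of log2 responses was below 0 in 27 of the 40 genes and above 0 in 0 by the limma test (1 at an unadjusted p under 0.05 and 2 by voom), where 22.8% of all tested genes were called lower and 19.0% higher (41.8% in all). Equal library totals gave 21 and 2, and over all genes moved the split from 2617 higher of 5752 called to 5576 of 7400. The median difference was −1.10 over the 40 genes, −2.22 over the 20 heavy chain genes and 0.02 over all genes. It was largest in size for Nlrc5 (−4.37 ± 0.13) and Tap1 (−3.62 ± 0.13). H2-K1 differed by −1.12 ± 0.22 (limma adjusted p = 0.00246) and B2m by −1.04 ± 0.28 (adjusted p = 0.0124), a call that was lost without untreated BMDM replicate 2, while H2-D1 was not called (adjusted p = 0.106). Of the 10 class II genes with Cd74, only H2-Oa was called (−1.09 ± 0.38, adjusted p = 0.0405), and it was lost without any one of 8 libraries; the other 9 had adjusted p-values from 0.0621 to 0.949. That class II genes were not called does not show that their responses were alike.

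**Figure D2:**
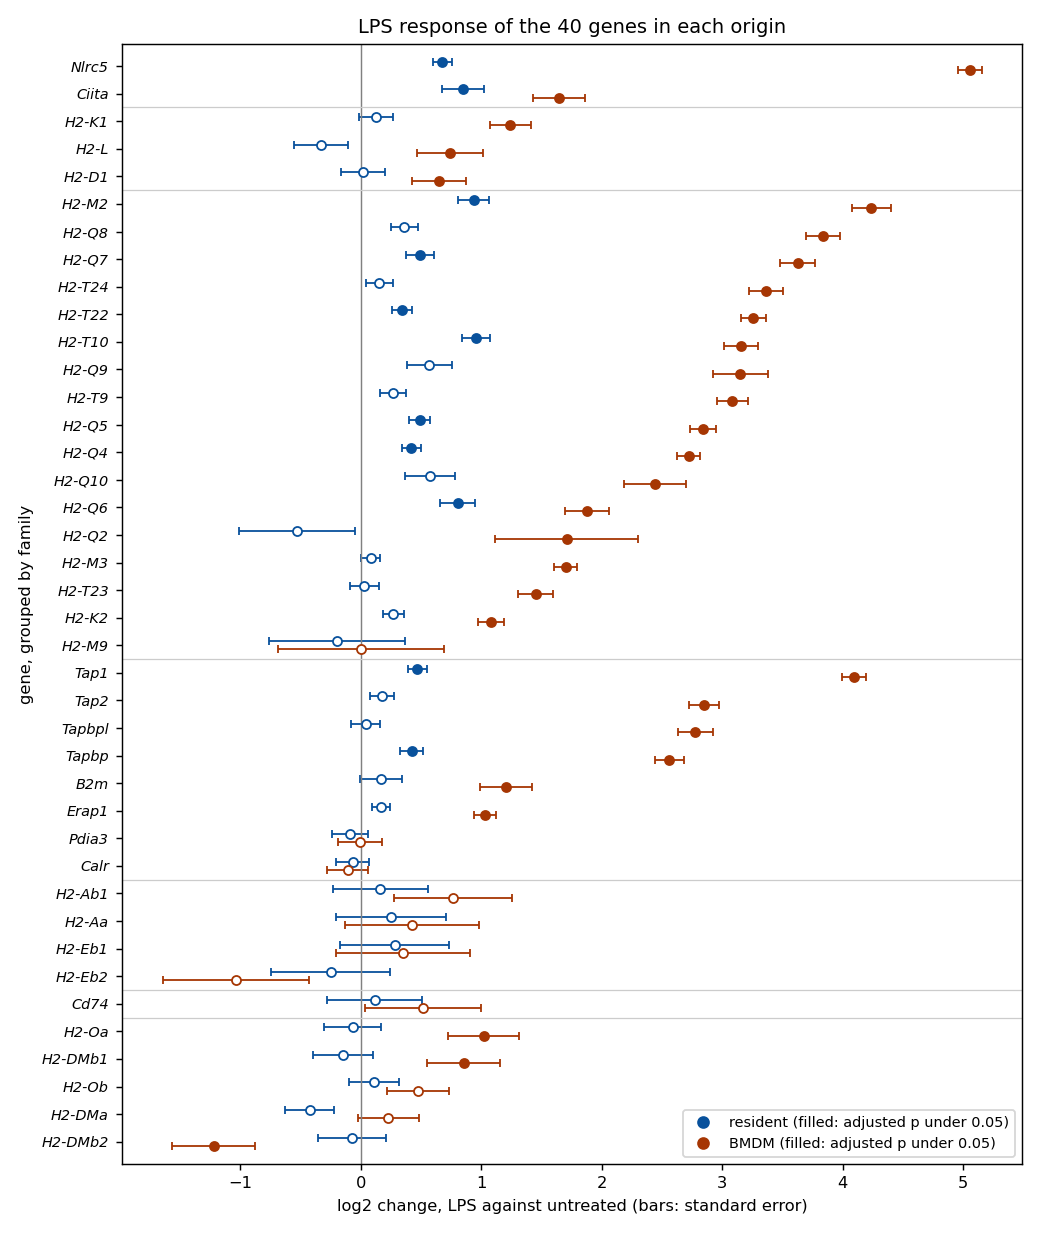
Log2 change with LPS of the 40 genes in resident cells and BMDM, with bars for the standard error and filled points for limma adjusted p under 0.05. The 27 genes whose responses differed lie further right in BMDM than in resident cells, as Nlrc5 does at 5.05 against 0.68. Of the class II genes with Cd74, 3 of 10 have filled points in BMDM (H2-DMb1, H2-Oa and H2-DMb2) and none in resident cells.

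The order of the 2 origins depended on the treatment. Untreated, 27 of the 40 genes were higher and 2 lower in resident cells than in BMDM, where 39.2% of all tested genes were higher and 32.6% lower (71.9% in all). After LPS, 14 were higher and 15 lower, where 36.7% of all genes were higher and 34.5% lower (71.3% in all). Equal library totals gave 16 higher and 10 lower among the 40 genes after LPS, and over all genes moved that split from 5050 higher of 9802 called to 6601 of 9667. Libraries did not overlap for 30 and 2 genes untreated (44.4% and 38.3% of all genes) and for 14 and 17 genes after LPS (42.3% and 40.2%). These comparisons share their libraries with the LPS comparisons, so the values are only set side by side.

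For 10 of the 40 genes, a count made after the values were seen, the resident level was the higher one untreated and the lower one after LPS. The share of all tested genes with this order was not counted, so the order cannot be called particular to these genes. The count was 6 with equal library totals and 7 with quantile normalization, and both settings ended the calls of Nlrc5, Tap1 and B2m after LPS. Nlrc5 went from 3.84 ± 0.09 to −0.53 ± 0.09 on the log2 scale (limma adjusted p = 4.73e-10 and 0.000384), and with equal totals to −0.21 (adjusted p = 0.0938). Tap1 went from 3.10 to −0.52 (−0.20 with equal totals, adjusted p = 0.0674), Tap2 from 1.95 to −0.72, Tapbp from 1.5 to −0.64 and Tapbpl from 1.76 to −0.98. The same held for the non-classical genes H2-T9 (1.63 and −1.19), H2-T22 (1.23 and −1.69), H2-T23 (0.63 and −0.79) and H2-M3 (0.28 and −1.34, the first of which was lost without untreated BMDM replicate 1, at 0.23, and with equal totals, at 0.12). For B2m the differences were 0.52 ± 0.20 (adjusted p = 0.0335) and −0.52 ± 0.20 (adjusted p = 0.0355), but these calls were lost without any one of 6 and 7 of the 10 libraries, and quantile normalization gave 0.12 after LPS.

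Several other heavy chain genes were higher in resident cells under both treatments. H2-Q7 was higher by 3.92 ± 0.13 untreated and 0.78 ± 0.13 after LPS, H2-Q8 by 4.64 and 1.17, and H2-Q6 by 2.90 and 1.82. H2-Q4 was higher by 2.53 ± 0.09 untreated and by 0.23 ± 0.09 after LPS (limma adjusted p = 0.0376), the second of which was lost without any one of 7 libraries (0.21 to 0.24). H2-M2 was lower in resident cells, at −0.49 ± 0.15 untreated (adjusted p = 0.013) and −3.79 ± 0.15 after LPS. The first of these calls was lost without untreated BMDM replicate 1 (−0.39). After LPS, H2-L was lower in resident cells (−0.92 ± 0.25, adjusted p = 0.00725), a call lost without LPS BMDM replicate 2 and with equal totals (−0.60), and H2-T10, H2-T24 and H2-Q2 were not called (adjusted p = 0.924, 0.0551 and 0.736). H2-K1 was higher by 1.07 ± 0.16 untreated (adjusted p = 0.000145), and after LPS its difference of −0.05 ± 0.16 was not called (adjusted p = 0.784) and turned to 0.27 with equal totals (adjusted p = 0.0299) and 0.63 with quantile normalization (adjusted p = 0.00024), both called. H2-D1 was not called untreated (0.29 ± 0.20, adjusted p = 0.222) or after LPS (−0.34 ± 0.20, adjusted p = 0.152), and quantile normalization turned the second to 0.46, which was called (adjusted p = 0.0115).

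Markers of other blood cells differed between the origins in the same direction as many of these genes, and their part in the differences was not tested. Summed neutrophil markers read 212025 to 382568 in the resident libraries and 1406 to 1627 in BMDM, erythroid markers 35308 to 54161 and 50.4 to 62.5, and monocyte markers 23315 to 51386 and 1133 to 2600. B lineage markers summed to 6171 to 10629 and 3420 to 4839. Of these, the B cell receptor subunit Cd79a read 1064 to 2208 and 36.0 to 47.4, and Igll1, a precursor B cell gene, was at the floor in BMDM. Of the 12 B lineage genes, only Blnk was lower in resident cells, at 1222 to 1905 against 2841 to 4452. Blnk made up most of the B lineage sum in BMDM. T and NK cell markers summed to 2429 to 3666 in resident and 757 to 1376 in BMDM libraries. Most of this sum was Cd4, at 1925 to 3435 in resident and 627 to 747 in BMDM libraries. Dendritic cell markers summed to 12125 to 15848 in resident libraries, 11468 to 11652 in untreated and 30514 to 31094 in LPS BMDM. Most of this sum was Bst2 and Itgax, which differed in opposite directions untreated. Bst2 read 8364 to 11808 in resident and 3363 to 3448 in untreated BMDM libraries, and Itgax 727 to 1235 and 6540 to 6628. Of the 13 dendritic cell markers, 10 were called higher and 2 lower in untreated resident cells, against 39.2% and 32.6% of all tested genes. Macrophage markers summed to 232375 to 384028 in resident and 218760 to 288999 in BMDM libraries, but their genes were divided. Of the 13, 5 were called higher and 5 lower in untreated resident cells. Vcam1 read 62423 to 88787 in resident and 432 to 11500 in BMDM libraries, and Csf1r 11995 to 20844 and 42060 to 61248.

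The classical class II genes H2-Aa, H2-Ab1 and H2-Eb1, with Cd74, divided the resident libraries. H2-Aa, the alpha chain of I-A, read 20883, 8626 and 7555 in untreated and 27651, 10135 and 8193 in LPS resident cells. It read 14813 and 15511 in untreated and 20064 and 20589 in LPS BMDM. In both resident groups replicate 1 lay above every untreated BMDM library and the other replicates below all 4 BMDM libraries. The LPS change was 0.25 ± 0.45 in resident cells (limma adjusted p = 0.791) and 0.42 ± 0.56 in BMDM (adjusted p = 0.551), and neither was called.

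H2-Ab1, the I-A beta chain, read 23248, 10513 and 9436 in untreated and 28179, 10949 and 10527 in LPS resident cells, with 11753 and 12286 in untreated and 21220 and 19743 in LPS BMDM. H2-Eb1, the I-E beta chain, read 15724, 6759 and 5507 in untreated and 21262, 7484 and 6599 in LPS resident cells, with 8393 and 8885 in untreated and 11236 and 10800 in LPS BMDM. Cd74 read 81872, 36102 and 33724 in untreated and 91563, 38125 and 36308 in LPS resident cells, with 55823 and 56565 in untreated and 81986 and 78765 in LPS BMDM. For each of these genes the BMDM groups did not overlap and the resident groups did. The BMDM changes were 0.77 ± 0.49 for H2-Ab1 (limma adjusted p = 0.205), 0.35 ± 0.55 for H2-Eb1 (adjusted p = 0.625) and 0.52 ± 0.48 for Cd74 (adjusted p = 0.389). The resident changes were 0.16 ± 0.40, 0.28 ± 0.45 and 0.12 ± 0.39 (adjusted p = 0.851, 0.759 and 0.899).

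The wide errors came with replicate 1 of the resident groups. In both groups, 6 of the 40 genes (H2-Aa, H2-Ab1, H2-Eb1, Cd74, H2-DMa and H2-DMb1) read over 1.5 times the mean of the other 2 replicates, with ratios from 1.53 to 3.02, against 1.36% of the genes with a mean of at least 10 (179 of 13120). The limit of 1.5 was set after these values were seen. Summed macrophage markers in replicate 1 were 1.53 times the mean of the other replicates untreated and 1.33 times with LPS, B lineage markers 0.674 and 0.796 times, neutrophil markers 0.606 and 0.896 times, monocyte markers 0.608 and 0.836 times, and dendritic cell markers 1.04 and 1.09 times. T and NK cell markers, mostly Cd4, were 1.32 and 1.15 times that mean, and erythroid markers 0.856 and 1.36 times. Gene by gene, replicate 1 was the lowest for 8 of the 10 T and NK cell markers untreated and 5 with LPS. It was the highest for 1 and 3 of them. Of the 13 dendritic cell markers it was the lowest for 6 and 7 and the highest for 3 and 4. The part of these markers, and of the Y-linked transcripts, in the class II levels was not tested.

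**Figure D3:**
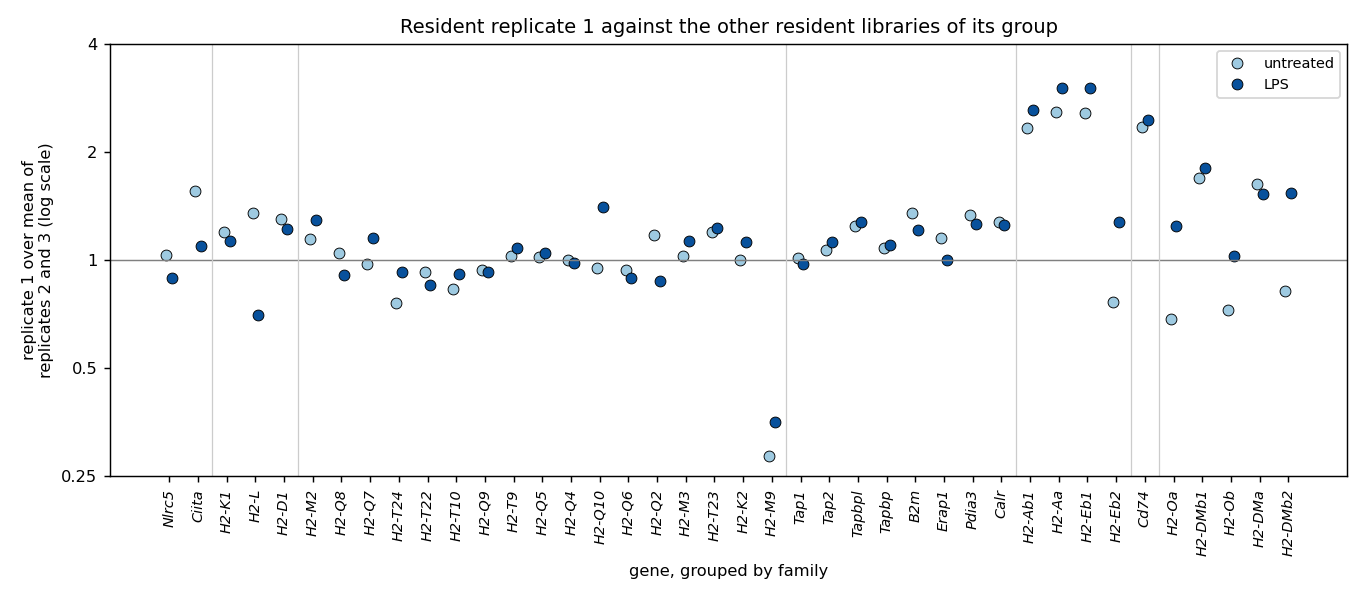
Ratio of resident replicate 1 to the mean of replicates 2 and 3 (log axis) for each of the 40 genes, in the untreated and LPS groups. The class II genes H2-Aa, H2-Ab1 and H2-Eb1, with Cd74, H2-DMa and H2-DMb1, lie at 1.53 to 3.02 in both groups. Every class I gene but H2-M9, which rests on few reads and lies at 0.285 and 0.355, lies between 0.702 and 1.41.

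Without both replicate 1 libraries, an alternative chosen after these data were seen, the class II changes in BMDM kept their size and passed the limma threshold: H2-Aa 0.42 (adjusted p = 0.00551), H2-Ab1 0.77 (adjusted p = 1.43e-05), H2-Eb1 0.35 (adjusted p = 0.0121) and Cd74 0.52 (adjusted p = 0.000549). The direction of the H2-Aa, H2-Eb1 and Cd74 changes in BMDM turned under equal library totals (−0.19, −0.26 and −0.10) and quantile normalization (−0.42, −0.51 and −0.58), and that of H2-Ab1 turned under quantile normalization (−0.14). Relative to the median of all genes the changes were nearly the same as deposited and with equal totals: 0.47 and 0.45 for H2-Aa, 0.81 and 0.80 for H2-Ab1, 0.39 and 0.38 for H2-Eb1, and 0.56 and 0.54 for Cd74. In the 4 remaining resident libraries, none of these genes was called for LPS (adjusted p from 0.191 to 0.506). With all libraries and a term for those holding Y-linked transcripts, also chosen after seeing the data, the resident LPS change of H2-Eb1 was called (0.28, adjusted p = 0.0375) and those of H2-Aa, H2-Ab1 and Cd74 were not (adjusted p = 0.0641, 0.0995 and 0.295).

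The same exclusion changed the calls between the origins, and the sign of untreated H2-Ab1. With all libraries, resident minus BMDM was −0.45 ± 0.51 for H2-Aa untreated (limma adjusted p = 0.44), 0.14 ± 0.44 for H2-Ab1 (adjusted p = 0.793), −0.05 ± 0.51 for H2-Eb1 (adjusted p = 0.939) and −0.28 ± 0.44 for Cd74 (adjusted p = 0.585). After LPS these were −0.62 ± 0.51, −0.47 ± 0.44, −0.12 ± 0.51 and −0.68 ± 0.44, with none called (adjusted p = 0.29, 0.364, 0.846 and 0.187). Without both replicate 1 libraries all 4 were called lower in resident cells: −0.91, −0.27, −0.50 and −0.69 untreated and −1.16, −0.93, −0.65 and −1.11 after LPS. For the difference of responses, that exclusion brought calls of H2-Ab1 (−0.66, adjusted p = 0.000731) and Cd74 (−0.42, adjusted p = 0.0173), and not of H2-Aa (adjusted p = 0.194) or H2-Eb1 (adjusted p = 0.427).

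As a share of all normalized reads, H2-Aa, H2-Ab1 and H2-Eb1 together took 0.193%, 0.0935% and 0.0847% of the untreated and 0.238%, 0.0955% and 0.0833% of the LPS resident libraries. They took 0.142% and 0.141% of the untreated and 0.135% and 0.132% of the LPS BMDM libraries. The share in BMDM was thus lower with LPS in both libraries, although the normalized sum was higher (52520 and 51132 against 34959 and 36682). The ratio of H2-K1 with H2-D1 to this class II sum was 3.88, 7.62 and 7.54 in untreated and 3.00, 6.87 and 7.68 in LPS resident libraries, and 3.84, 3.77, 4.64 and 4.73 in BMDM, the last 2 with LPS. H2-Aa over H2-Ab1 was 1.26 in both untreated BMDM libraries, 0.946 and 1.04 in LPS BMDM and 0.778 to 0.981 in the resident libraries.

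The transactivator Ciita rose in both origins, although the classical class II genes were not called in either. It read 999, 694 and 588 in untreated and 1425, 1173 and 1436 in LPS resident cells (0.85 ± 0.18, limma adjusted p = 0.0125), with 274 and 337 in untreated and 947 and 964 in LPS BMDM (1.65 ± 0.22, adjusted p = 8.46e-05). The groups did not overlap within either origin. With the 6 resident libraries alone its adjusted p was 0.0513. Resident cells were higher by 1.28 ± 0.20 untreated (adjusted p = 0.000193) and by 0.49 ± 0.20 after LPS (adjusted p = 0.0466), the second of which was lost without any one of 7 libraries (0.44 to 0.58).

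The accessory class II genes fell into distinct patterns. H2-DMb1, a beta chain of the peptide exchanger H2-DM, read 1558, 919 and 927 in untreated and 1470, 829 and 804 in LPS resident cells, with 1919 and 1952 in untreated and 3550 and 3457 in LPS BMDM. All BMDM libraries were above all resident ones, by −0.82 ± 0.28 untreated (limma adjusted p = 0.0212) and −1.82 ± 0.28 after LPS (adjusted p = 0.000179) as resident minus BMDM. The untreated call was lost without resident untreated replicate 2 or 3 or untreated BMDM replicate 1 or 2 (−1.07 to −0.69). Its rise in BMDM (0.86 ± 0.30, adjusted p = 0.0324) was lost without any one of the 4 BMDM libraries (adjusted p from 0.0991 to 0.115), and with equal totals (0.24), while without both resident replicate 1 libraries it was called at the same size (adjusted p = 1.12e-06).

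H2-DMa, the alpha chain, read 1790, 1113 and 1077 in untreated and 1277, 855 and 814 in LPS resident cells, with 1210 and 1259 in untreated and 1429 and 1463 in LPS BMDM. Its changes of −0.42 ± 0.21 and 0.23 ± 0.25 were not called (limma adjusted p = 0.218 and 0.473). Without both replicate 1 libraries they were −0.39 (adjusted p = 0.00397) and 0.23 (adjusted p = 0.0116), both called, while equal library totals gave −0.55 in resident cells, which was called (adjusted p = 0.047), and turned the BMDM value to −0.38. After LPS, H2-DMa was lower in resident cells than in BMDM (−0.59 ± 0.23, adjusted p = 0.0417), a call lost without any one of 6 libraries (−0.79 to −0.47) and with equal totals (−0.26). H2-DMb1 over H2-DMa within a library was 0.870, 0.825 and 0.860 in untreated and 1.15, 0.969 and 0.988 in LPS resident cells, and 1.59 and 1.55 in untreated and 2.48 and 2.36 in LPS BMDM. The ratio was thus higher with LPS in both origins, with no overlap. H2-DMb2, the second beta chain gene, read 55.3, 52.2 and 82.9 in untreated and 79.4, 45.1 and 57.9 in LPS resident cells. It fell in BMDM from 41.0 and 47.5 to 22.6 and 14.9 (−1.22 ± 0.35, adjusted p = 0.0116), a call lost without replicate 2 of either BMDM group (−1.51 to −0.93 over the libraries left out in turn).

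The H2-O genes were higher in resident cells under both treatments. Their product restrains H2-DM and is known best from B cells and some dendritic cells. H2-Ob, the beta chain, read 317, 339 and 532 in untreated and 428, 353 and 479 in LPS resident cells, with 25.5 and 24.7 in untreated and 32.9 and 37.9 in LPS BMDM. Resident cells were higher by 3.89 ± 0.23 untreated (limma adjusted p = 1.91e-07) and 3.52 ± 0.23 after LPS (adjusted p = 4.72e-07). H2-Oa, the alpha chain, read 11.9 and 9.14 in untreated and 22.6 and 21.7 in LPS BMDM, and 53.5, 69.3 and 86.7 in untreated and 75.7, 58.0 and 63.8 in LPS resident cells, and was higher in resident cells by 2.61 ± 0.27 (adjusted p = 1.01e-05) and 1.52 ± 0.27 (adjusted p = 0.000478). H2-Eb2, a second I-E beta gene, was also higher, by 2.37 ± 0.55 and 3.16 ± 0.55 (adjusted p = 0.00306 and 0.000491), at 39.7 to 85.7 against 2.06 to 17.4 normalized reads. H2-DMb2 was called higher in resident cells after LPS (1.64 ± 0.32, limma adjusted p = 0.000923) and not untreated.

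Relative to H2-DM, the sum of H2-Oa and H2-Ob was 0.111, 0.201 and 0.308 of H2-DMa with H2-DMb1 in untreated and 0.183, 0.244 and 0.336 in LPS resident libraries, and 0.0105 to 0.0121 in BMDM. Replicate 1 was the lowest of each resident group in this ratio, and it was the highest of each group in H2-DMa and H2-DMb1. H2-Oa and H2-Ob themselves were lowest in replicate 1 of the untreated group and not of the LPS group. Summed B lineage markers read 6171, 7688 and 10629 in untreated and 6836, 7917 and 9263 in LPS resident libraries. The part of B lineage RNA in H2-Ob, H2-Oa and H2-Eb2 was not tested. In BMDM, H2-Oa rose with LPS (1.02 ± 0.29, limma adjusted p = 0.0121), a call lost without untreated replicate 2 or LPS replicate 1 (0.85 to 1.19) or with equal totals (0.45), and H2-Ob was not called (0.48 ± 0.25, adjusted p = 0.135), a change that turned to −0.11 with equal totals.

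**Figure D4:**
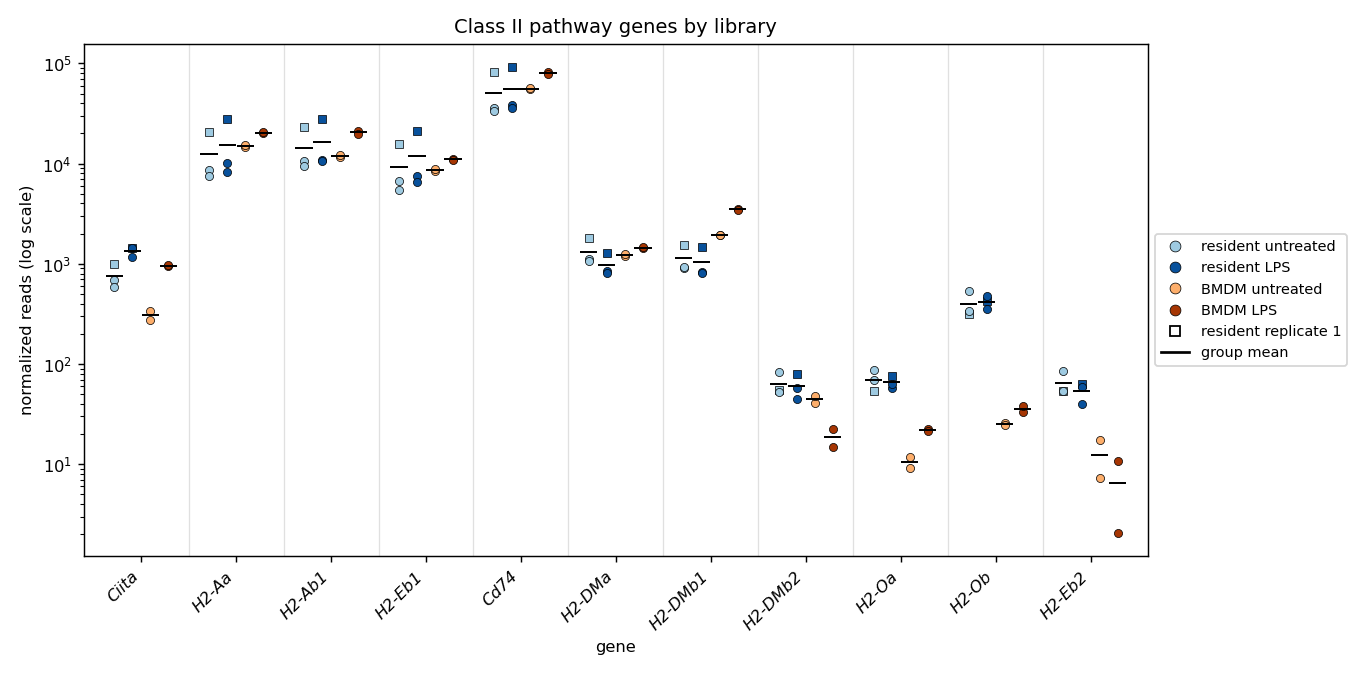
Normalized reads per library (log scale) of Ciita, Cd74 and 9 class II genes. Colours mark the 4 groups, squares mark resident replicate 1 and bars are group means. For H2-Aa, H2-Ab1, H2-Eb1 and Cd74 the squares stand above the other resident libraries, and for H2-Ob all resident libraries, at 317 to 532, stand above BMDM, at 24.7 to 37.9.

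Genes that feed the same pathways were followed in lists, whose counts stand against the 28.3% of all tested genes that rose and 29.5% that fell in BMDM, and the 7.36% and 5.57% in resident cells. All 6 immunoproteasome genes, which shape peptides for class I, rose in BMDM, with Psmb9 at 2.93 ± 0.10 and Psmb10 at 2.92 ± 0.12, and 0 of 6 were called in resident cells by limma (2 higher at an unadjusted p under 0.05 and 0 by voom). All 6 were higher in resident cells untreated (Psmb9 by 1.66) and lower after LPS (Psmb10 by −1.70), and all 6 differences of responses were called lower. The shares of all tested genes were 39.2% higher untreated, 34.5% lower after LPS and 22.8% lower for the difference. Equal library totals left 5 of the 6 called lower after LPS. Of 14 constitutive proteasome genes, 11 rose in BMDM and 0 were called in resident cells (0 at an unadjusted p under 0.05 and 3 lower by voom). Equal library totals gave 5 rises and 4 falls of these 14 in BMDM, with their median at −0.01 against 0.60 as deposited, so their rise depended on the scaling, while all 6 immunoproteasome genes rose under both. Of 14 interferon signalling genes, 13 rose and 1 fell in BMDM, led by the feedback inhibitor Socs1 (7.40) and the transcription factor Irf7 (5.45), while 7 rose and 1 fell in resident cells, with the kinase Jak2 at 0.80 and Socs1 at 0.66. The receptor gene Ifngr1 was the 1 that fell in each, by −0.98 in BMDM and −0.33 in resident cells on the log2 scale. Equal library totals gave 12 rises and 1 fall of these 14 in BMDM and 3 rises and 1 fall in resident cells. Over all genes, equal totals gave 2158 rises of 10002 called in BMDM and 646 of 2386 in resident cells.

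Of the 7 enhanceosome genes that hold Nlrc5 and Ciita at promoters, Rfx5 (2.13) and Nfyb (0.87) were among 3 that rose in BMDM and Rfxank (−1.14) and Rfxap (−0.83) among 3 that fell. In resident cells, 2 rose (Rfx5 0.53 and Nfyb 0.41). Equal library totals gave 1 rise and 4 falls of these 7 in BMDM and 1 rise and 2 falls in resident cells. Of 10 class II processing genes, 2 rose in BMDM and 1 in resident cells, the protease Sppl2a, which clears the Cd74 remnant, in both (1.91 and 0.48). With equal totals, 1 of these 10 rose and 7 fell in BMDM, and 1 rose and 3 fell in resident cells. Untreated, the thiol reductase Ifi30 was higher in resident cells (2.55) and the cathepsins Ctss (−2.77) and Ctsl (−3.14) were lower. Of 5 class II turnover genes, Il10 rose in both origins (5.64 in BMDM and 1.79 in resident cells) and Cd83, which opposes the removal of surface class II by the ligase March1, rose in BMDM (3.23). March1 rose in both origins, by 1.92 in BMDM and 0.47 in resident cells, and was lower in resident cells than in BMDM both untreated (−1.0) and after LPS (−2.44). With equal totals, 3 of the 5 turnover genes rose and 2 fell in BMDM, and 1 rose and 1 fell in resident cells. Of 10 MHC-like genes outside the complex, 2 rose and 3 fell in BMDM (Procr 2.68, Ulbp1 1.31, Mr1 −1.23 and Hfe −1.13), and 3 fell in resident cells, among them Hfe (−0.99) and Fcgrt, the neonatal Fc receptor (−0.79). With equal totals, 2 of these 10 rose and 4 fell in BMDM, and 3 fell in resident cells. Of 9 endoplasmic reticulum loading genes, 3 rose in BMDM (Lnpep 1.73 and Hspa5 1.21 among them) and 1 in resident cells (Lnpep 0.37). With equal totals, 2 of these 9 rose and 5 fell in BMDM, and 0 rose and 1 fell in resident cells.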

How the data were processed

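RNA sequencing values of 13809 genes in 10 libraries were read from 1 deposited table. Its values are a signal: the table is titled as normalized expression, and the authors' deposited values were found to be whole reads divided by 1 factor per library (100% of values within a tolerance of 0.02), with a floor of 1. HISAT 0.1.7 and mm10 are named in the submitters' processing notes. How reads were counted, with which annotation and strand setting, is not given in the sources used here. Totals of recovered reads were 27.1 M to 37.7 M reads per library, so counting error is small for the abundant genes and large for genes near the floor.

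Groups came from the labels, and no library was left out. A gene was tested if 2 libraries or more held at least 10 (13755 tested, 54 left out), and log2(value + 1) was fitted with limma 3.58.1 (R 4.3.3) with a mean-variance trend, 4 group means and 6 residual degrees of freedom, so fold changes of low genes are understated. P-values are 2-sided, adjusted by Benjamini and Hochberg's method over all tested genes within each of 5 contrasts, and called under 0.05. The script was tested on simulated data. Folds and sums are of group means and library values, and sequences were searched with Python 3.11.15 and pandas 2.3.3.

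The members, the pathway and marker lists and the tests were chosen with earlier results of these data known. Genes named are the 40 members, with up to 2 called rises and 2 called falls of each pathway list. Alternatives were other pseudocounts and filters, limma without the trend, array weights, median-ratio factors computed again, quantile normalization, only the groups compared and leaving out each library. Equal library totals, voom on recovered reads, a model term marking the 2 libraries that hold Y-linked transcripts, and omitting that pair, were chosen after seeing the data. Voom scaled reads by library totals, so it shares its scaling with equal library totals and is not an independent check of it. The median log2 change of all genes with LPS in BMDM was −0.64 under both. For members that were not called, alternatives were run on all and are given for the values printed.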

Additional observations from a re-analysis of the deposited data

Results flagged for a closer look

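For 27 of the 40 genes the LPS response differed between the origins by limma's test of the difference itself, and in each the log2 response was smaller in resident cells than in BMDM. Over all tested genes, 41.8% were called for this difference, 22.8% lower and 19.0% higher. As resident minus BMDM, the largest differences were those of Nlrc5 (−4.37), Tap1 (−3.62), H2-Q8 (−3.47), H2-M2 (−3.30), H2-T24 (−3.21) and H2-Q7 (−3.13). Differences between −3 and −2 were found for H2-T22 (−2.92), H2-T9 (−2.82), Tapbpl (−2.74), Tap2 (−2.67), H2-Q9 (−2.58), H2-Q5 (−2.35), H2-Q4 (−2.30), H2-Q2 (−2.24, few reads), H2-T10 (−2.20) and Tapbp (−2.14). Smaller ones were those of H2-Q10 (−1.87, with untreated BMDM at the floor), H2-M3 (−1.62), H2-T23 (−1.42), H2-K1 (−1.12), H2-Oa (−1.09), H2-L (−1.07), H2-Q6 (−1.07), B2m (−1.04), Erap1 (−0.86), H2-K2 (−0.81) and Ciita (−0.80). The calls of B2m, Ciita, H2-L, H2-Oa and H2-Q2 were lost without any one of 1, 7, 7, 8 and 8 of the 10 libraries, in that order, and those of Ciita, H2-K2, H2-L, H2-Oa, H2-Q2 and H2-Q6 with equal library totals.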

How the results depend on the processing

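Of the 126 calls of members over the 5 comparisons, 88 held in every setting run, and 3 turned sign in at least 1 setting. Recomputed median-ratio factors changed no count of members. Genes rising in resident cells went from 11 to 6 when only the groups compared were fitted (fewer libraries). Genes falling there went from 0 to 1 with quantile normalization, equal library totals, the term for the libraries with Y-linked transcripts or both of these left out. Genes falling in BMDM went from 1 to 0 with a filter at 100, 2 with quantile normalization or only the groups compared, 4 with equal totals, 3 with voom and 0 to 1 without each library in turn. Genes lower in untreated resident cells went from 2 to 4 with array weights, 7 with the Y-linked term or without both libraries, and 0 to 2 without each library. Differences of responses called higher went from 0 to 2 with quantile normalization, equal totals or voom, 1 with array weights or the Y-linked term, and 0 to 1 without each library. The summed H2-K1 and H2-D1 level moved with equal totals from 136170 to 164510 in untreated BMDM and from 242750 to 191980 in LPS BMDM (239210 with median-ratio factors), and the class II sum from 35820 to 43265 and from 51826 to 40986.

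Sign changes were as follows, with the cause not tested. Equal totals and voom both scale by library totals, so their values are not independent of each other. For LPS in BMDM, quantile normalization, equal totals and voom gave Cd74 −0.58, −0.10 and −0.10, H2-Aa −0.42, −0.19 and −0.19, and H2-Eb1 −0.51, −0.26 and −0.26. Quantile normalization gave H2-Ab1 −0.14, H2-D1 −0.37 and H2-K1 0.00, and equal totals and voom gave H2-DMa −0.38 and −0.38 and H2-Ob −0.11 and −0.13. For LPS in resident cells, quantile normalization gave B2m −0.29, Cd74 −0.30, H2-D1 −0.019, H2-K1 −0.31 and H2-T23 −0.12. Equal totals and voom gave Cd74 −0.008 and −0.008, H2-D1 −0.10 and −0.10, H2-M3 −0.041 and −0.036 and H2-T23 −0.093 and −0.093, and array weights gave H2-T23 −0.023. For untreated resident against BMDM, H2-Ab1 was −0.30 with quantile normalization, −0.026 with equal totals, −0.027 with voom, −0.14 with array weights, −0.30 with the Y-linked term and −0.27 without both libraries. After LPS, quantile normalization gave B2m 0.12, H2-D1 0.46, H2-Eb1 0.19 and H2-K1 0.63, and equal totals and voom gave H2-Eb1 0.21 and 0.21 and H2-K1 0.27 and 0.27. Without each library in turn, the resident LPS changes ran from −0.32 to 0.53 for Cd74, −0.28 to 0.71 for H2-Aa, −0.30 to 0.57 for H2-Ab1, −0.25 to 0.74 for H2-Eb1, −0.092 to 0.15 for H2-D1, −0.43 to 0.11 for H2-DMb1 and −0.084 to 0.12 for H2-T23. Resident against BMDM ran from −0.27 to 0.38 for H2-Ab1 and −0.50 to 0.26 for H2-Eb1 untreated, and from −0.65 to 0.20 for H2-Eb1 after LPS. The BMDM change of Pdia3 ran from −0.027 to 0.0091, and the difference of responses of Calr from −0.084 to 0.16.

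No paired analysis was possible because the labels give no replicate numbers that groups share, and numbers given in accession order pair nothing. With 2 libraries in each BMDM group, the spread of BMDM rests on the spread pooled over all groups, and for class II genes that spread holds the gap between the resident replicates. Genes near the floor, such as H2-M9, H2-Q2 and H2-Q10 in BMDM, rest on few reads. Total RNA per cell was not measured, so the choice between the deposited scaling and equal totals was not tested.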
